A study of Colocasia esculenta with 9 samples.

Results

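A set of 150 gene models with low counts in a single leaf library, replicate 3 of the taro cultivar Palau 10, was described across 3 cultivars of Colocasia esculenta. For each gene model the level was written as L = log2(CPM + 1), where CPM is the gene model's share of the fragments assigned in that library, scaled to 1000000. Among the 13712 gene models that averaged 5 CPM or more over the Palau 10 libraries, of 57034 in all, the gene models were ranked by the smaller L of replicates 1 and 2 minus L in replicate 3, and the highest 150 (1.09% of those ranked) were taken. The members were thus chosen by their CPM in the 3 Palau 10 libraries, and their fall in replicate 3 is given as a description with no test. The Sam-07 and Niue libraries had no part in the choice. The values just inside and outside the limit were 2.723 for Taro_010462 (rank 150) and 2.717 for Taro_051225, the next in rank, on the log2 scale.

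The groups were Palau 10 (Ngerruuch in the labels, replicates 1, 2 and 3), Sam-07 (Samasama, replicates 1, 2 and 3) and Niue (replicates 2, 3 and 4), with no treatment named in the labels. All plants were raised from tissue culture and were vegetative and 8 months old, after growth in a chamber under 12 h of light a day, at 85% humidity and 27 °C. RNA was taken from the 2 youngest leaves, which were handled straight after picking without freezing in liquid nitrogen or dry ice. The labels do not say whether replicates of a cultivar were separate plants or shared a clone. The p-values given below weigh the difference between cultivars against the spread between these libraries, which may be technical.

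Taro is an aroid multiplied by planting pieces of the corm, so that plants of a cultivar are close to genetic copies. In young leaves of plants generally, transcripts of growth, light harvesting, the daily clock and wound response vary with leaf age, hour and touch. This is background and none of it was measured here. Names and products of the gene models do not appear in the count files, so they are given by identifier, scaffold and position in the assembly those files use, whose version the sources used here do not give. The leaf label could not be set against marker genes for the same reason.

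The libraries held 14069579 fragments for Palau 10 replicate 3, 14857098 and 14552704 for replicates 1 and 2, 8513507 to 18175384 for Sam-07 and 5468567 to 15244913 for Niue, so replicate 3 of Palau 10 was about as deep as its cultivar mates. A level of 3 fragments, taken as the floor, was 0.213 CPM in Palau 10 replicate 3 and 0.165 to 0.549 CPM in the other libraries. Intervals and floors cover counting error only. Of all 13712 ranked gene models, 10.7% were at least 2-fold lower and 11.8% at least 2-fold higher in Palau 10 replicate 3 than in both its cultivar mates, so this library stood apart in both directions. At least 4-fold lower than both were 346 gene models (2.52%), the 150 among them. A set of 5 abundant gene models (Taro_025253, Taro_025252, Taro_000496, Taro_027264 and Taro_036193, none of them members and all known from earlier results) took 26.3% of the fragments in Niue replicate 4, 12.5% in Niue replicate 3 and at most 7.1% in the other libraries, which lowers the CPM of all other gene models there.

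Together the 150 gene models took 0.388% of the fragments in Palau 10 replicate 3, against 4.49% and 4.35% in Palau 10 replicates 1 and 2. They took 2.23%, 3.12% and 3.19% in Sam-07 replicates 1, 2 and 3, and 4.03%, 2.95% and 2.18% in Niue replicates 2, 3 and 4. The summed level in Palau 10 replicate 3 was thus the lowest of the 9 libraries, and replicates 1 and 2 of Palau 10 were the highest. The median gene model of the 150 had 3.66 CPM in Palau 10 replicate 3, against 65 and 67.7 CPM in replicates 1 and 2. The median was 30.3, 35.8 and 31.6 CPM in the Sam-07 libraries, and 66.2, 37.6 and 28.6 CPM in the Niue libraries. Over all 13712 ranked gene models the median was 25.4 CPM in Palau 10 replicate 3, against 24.9 and 23.8 CPM in replicates 1 and 2. The low sum and median of the 150 in replicate 3 follow from how they were chosen, which also favours high sums in replicates 1 and 2. The sums lean on abundant members such as Taro_018209. It held 7212 of 44875 CPM in Palau 10 replicate 1 and 5506 of 21769.5 CPM in Niue replicate 4. In bulk leaf RNA, fewer cells of a type and less RNA per cell cannot be told apart.

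**Figure D1:**
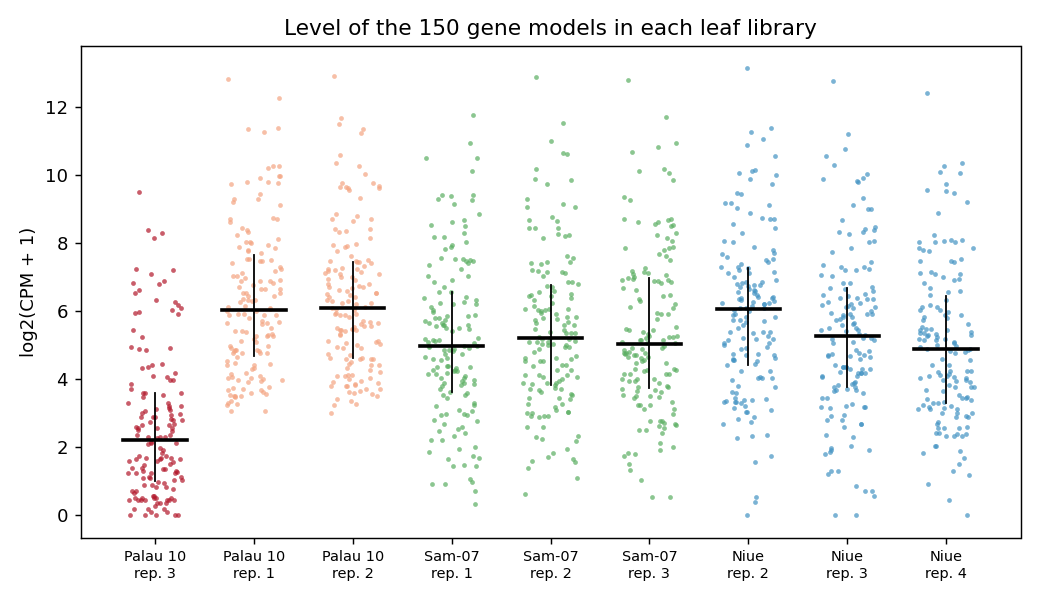
Level of each of the 150 gene models as log2(CPM + 1) in the 9 leaf libraries, 1 point per gene model. Thick bars are medians and thin lines run between the quartiles; the median of Palau 10 replicate 3 is 3.66 CPM, against 28.6 to 67.7 CPM in the other 8 libraries.

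The fall was large and came close to the loss of counts for some gene models. With fewer than 3 fragments in replicate 3 set at 3, the mean of Palau 10 replicates 1 and 2 was at least 10-fold the level in replicate 3 for 114 gene models, at least 20-fold for 60, at least 50-fold for 27 and at least 100-fold for 5. In Palau 10 replicate 3, 38 of the 150 lay under 1 CPM and 5 had no fragment, whereas the lowest level of the 150 in replicates 1 and 2 was 7.08 CPM. The 150 were not rare transcripts. By their mean in Palau 10 replicates 1 and 2, 9 were at 1000 CPM or more (6%, against 0.707% of all ranked gene models), 50 at 100 to 1000 CPM (33.3% against 12.2%), 89 at 10 to 100 CPM (59.3% against 66.8%) and 2 under 10 CPM (1.33% against 20.3%). The ranking favours high levels, since a gene model at 5 to 10 CPM can fall only a little on the log2(CPM + 1) scale. Replicates 1 and 2 of Palau 10 differed by a median of 1.25-fold over the 150, with replicate 1 higher for 66.

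The Palau 10 levels were also set against the 6 Sam-07 and Niue libraries. Replicate 3 was below all 6 for 139 of the 150 (92.7%, against 22.1% of all ranked gene models), within their range for 10 (6.67%, against 48.2%) and above it for 1 (0.667%, against 29.7%). Replicates 1 and 2 of Palau 10 were both within the range of the 6 libraries for 50 (33.3%, against 59.3%), both above it for 66 (44%, against 12.2%) and both below it for 2 (1.33%, against 2.68%). For 61 gene models both held, with replicate 3 below all 6 libraries and replicates 1 and 2 above all 6 (40.7%, against 3.57%). The choice of members favours high levels in replicates 1 and 2 and low levels in replicate 3, so these shares describe the set. The median difference of Palau 10 replicate 3 minus another library was -2.13 on the log2 scale for Niue replicate 4, the smallest among the 6, and -3.21 for Niue replicate 2, the largest. The mean of Palau 10 replicates 1 and 2 was above the means of Sam-07 and of Niue for 120 gene models (80%, against 48%), and at least 2-fold above both for 36 (24%, against 2.51%).

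**Figure D2:**
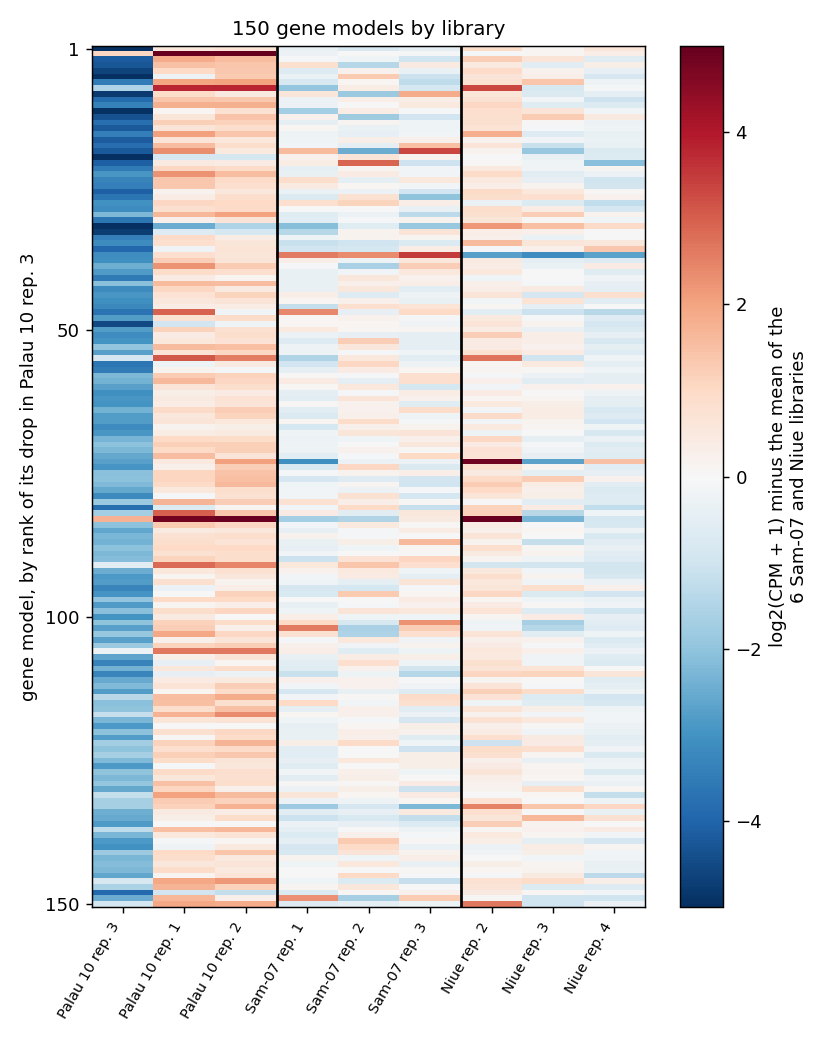
Each row is 1 of the 150 gene models in the order of its fall in Palau 10 replicate 3, and each column a library. Colour is log2(CPM + 1) minus the mean of the 6 Sam-07 and Niue libraries, with values beyond 5 drawn at the end of the scale; replicate 3 of Palau 10 is below all 6 for 139 rows, and replicates 1 and 2 are above all 6 for 66.

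The first gene models by rank show the pattern at its strongest. Taro_008492, with 10 exons on the minus strand of TARO_scaffold_000280 (521009 to 528346), had 0.426 CPM in Palau 10 replicate 3 (6 fragments), against 119.9 and 137 CPM in replicates 1 and 2. It had 64.8, 49 and 59.3 CPM in Sam-07 and 158, 90.2 and 128 CPM in Niue. The other 8 libraries thus held it between 49 and 158 CPM, and Palau 10 replicate 3 was 301-fold below the mean of its cultivar mates. Taro_056011 (TARO_scaffold_014547, 2936 to 8125, 10 exons, minus strand) had 0.426 CPM in Palau 10 replicate 3, against 91.2 and 73.1 CPM in replicates 1 and 2, and 23.2, 20.5 and 11.6 CPM in Sam-07 and 57.9, 38.6 and 15.5 CPM in Niue. Taro_028931 (TARO_scaffold_001894, 111576 to 113758, 2 exons, minus strand) kept 1 fragment (0.0711 CPM) in Palau 10 replicate 3, against 48.9 and 151.2 CPM in replicates 1 and 2, a 1400.3-fold difference in pooled CPM (95% counting interval 251 to 55326). With that count set at the floor of 3 fragments, the mean of replicates 1 and 2 was 469-fold the level in replicate 3. Taro_028931 had 47.4, 148 and 27.8 CPM in Sam-07 and 93.1, 74.8 and 33.1 CPM in Niue, so it also varied within the other cultivars.

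At higher levels the fall left a clear remainder. Taro_037059 (TARO_scaffold_003183, 17355 to 18477, 2 exons, plus strand) had 6.89 CPM in Palau 10 replicate 3, against 423 and 401 CPM in replicates 1 and 2, with 263, 56.1 and 205 CPM in Sam-07 and 209.6, 101 and 186 CPM in Niue. Taro_015591 (TARO_scaffold_000674, 250112 to 252706, 2 exons, plus strand) had 11.1 CPM there, against 591 and 756 CPM in replicates 1 and 2, with 187, 345 and 236 CPM in Sam-07 and 574, 342 and 219.8 CPM in Niue. Both were below every other library in Palau 10 replicate 3. Taro_008650 (TARO_scaffold_000288, 273302 to 276351, 2 exons, plus strand) and Taro_044049 (TARO_scaffold_004882, 11329 to 12844, 2 exons, minus strand) had 1.99 and 2.06 CPM in Palau 10 replicate 3, 66.6-fold and 54.1-fold below the mean of replicates 1 and 2. Their levels were 13 to 35.2 CPM and 34.8 to 54.7 CPM in Sam-07, and 27.2 to 87.1 CPM and 20.5 to 73.8 CPM in Niue. Taro_036078 (TARO_scaffold_003007, 116903 to 119029, 3 exons, plus strand) had 0.995 CPM in Palau 10 replicate 3, against 105 and 75 CPM in replicates 1 and 2, and in Sam-07 it had 82.4, 14.4 and 197 CPM, so replicate 2 of Sam-07 was low as well. In Niue it had 82.6, 32.9 and 38.4 CPM.

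**Figure D3:**
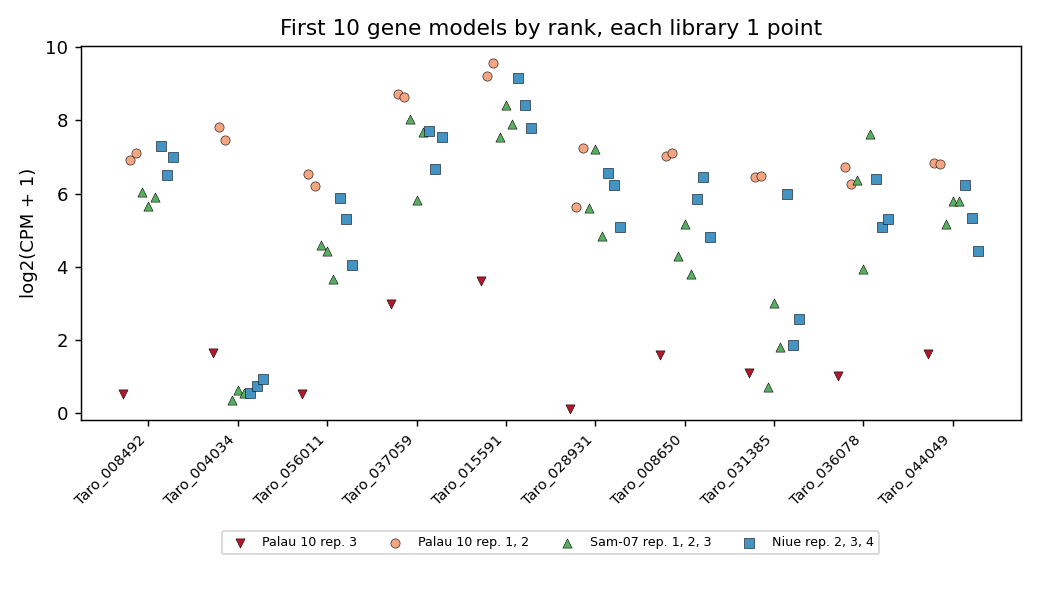
The first 10 gene models by rank, with log2(CPM + 1) on the vertical axis and 1 point per library. Palau 10 replicate 3 (triangles pointing down) is below all 8 other libraries for 8 of the 10; for Taro_004034 all Sam-07 and Niue libraries lie under 1 CPM, and for Taro_031385 a Sam-07 library is lower.

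In 5 gene models no count was left, at ranks 36 to 90. These 5 gene models without a fragment in Palau 10 replicate 3 were Taro_009802, Taro_047490, Taro_054777, Taro_037005 and Taro_031264, with 7.08 to 23.3 CPM in replicates 1 and 2. Set against the floor of 3 fragments in that library, they were at least 83.3-fold, 63.1-fold, 55.2-fold, 52-fold and 36.6-fold lower in Palau 10 replicate 3 than the mean of replicates 1 and 2. Taro_009802 (TARO_scaffold_000347, 82600 to 84894, 4 exons, minus strand) had 12.2 and 23.3 CPM in Palau 10 replicates 1 and 2, 6.76, 7.15 and 18.3 CPM in Sam-07 and 13, 17.1 and 37.7 CPM in Niue. Among the 138 of the 150 that averaged 5 CPM or more in Niue it was the only member at least 2-fold higher in Niue replicate 4 than in both other Niue libraries (0.725%, against 0.713% of all). Taro_037005 (TARO_scaffold_003174, 152363 to 159449, 2 exons, minus strand) had 3.06, 15.9 and 13.9 CPM in Sam-07 and 9.12, 5.92 and 8.41 CPM in Niue, so the 6 libraries of the other cultivars all held it at 3.06 CPM or more. A count of 0 allows a level of up to 0.213 CPM there and does not show that the gene is silent.

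The 4 most abundant of the 150 fell by a factor near 10. Taro_018209 (TARO_scaffold_000842, 322952 to 328460, 11 exons, plus strand) had 722 CPM in Palau 10 replicate 3, against 7212 and 7739.8 CPM in replicates 1 and 2. It had 3471, 7594 and 7177 CPM in Sam-07 and 9037, 6999.6 and 5506 CPM in Niue, so Palau 10 replicate 3 lay below all 8 other libraries. Per kilobase of exon this is 265 FPKM (CPM per kilobase of summed exon length) in replicate 3, against a mean of 2743 FPKM in replicates 1 and 2. Taro_053942 (TARO_scaffold_010371, 12008 to 16798, 6 exons, minus strand) had 202 FPKM in replicate 3, against a mean of 2704 FPKM in replicates 1 and 2. Taro_045880 (TARO_scaffold_005509, 11954 to 13084, 2 exons, plus strand) had 325 FPKM, against 2750.1 FPKM, and Taro_028778 (TARO_scaffold_001875, 141629 to 143091, 2 exons, minus strand) had 232 FPKM, against 2096 FPKM. In CPM these 3 were 13.4-fold, 8.46-fold and 9.04-fold lower in replicate 3, and each was below all 8 other libraries there.

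A few gene models did not follow the rest, and they were singled out by their position against the Sam-07 and Niue libraries. Taro_004034 (TARO_scaffold_000107, 396798 to 397877, 3 exons, minus strand) had 2.13 CPM in Palau 10 replicate 3, against 223 and 176 CPM in replicates 1 and 2, but it reached only 0.27 to 0.55 CPM in Sam-07 and 0.459 to 0.914 CPM in Niue. It was thus high in 2 libraries of 1 cultivar, and its low level in replicate 3 was still above the other cultivars. Taro_051199 (TARO_scaffold_008036, 16222 to 17428, 3 exons, plus strand) had 27.8 CPM in Palau 10 replicate 3, against 218 and 219 CPM in replicates 1 and 2, with 22.4 to 44.2 CPM in Sam-07 and 28.3 to 50.2 CPM in Niue. Taro_011520 (TARO_scaffold_000432, 512263 to 512844, 1 exon, minus strand) had 6.75 CPM, against 50.5 and 59.4 CPM, with 5.17 to 10.6 CPM in Sam-07 and 16.3 to 25 CPM in Niue. For these 2 the level in Palau 10 replicate 3 was close to that of another cultivar, and replicates 1 and 2 were the high ones. The reverse held for Taro_016530 and Taro_023032, whose 3 Palau 10 libraries all lay below the other 6. Taro_016530 (TARO_scaffold_000735, 72003 to 77462, 5 exons, plus strand) had 5.26 CPM in Palau 10 replicate 3, against 152 and 149 CPM in replicates 1 and 2, with 317, 434 and 313 CPM in Sam-07 and 268, 215 and 173 CPM in Niue.

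The next question was how these gene models vary in cultivars that did not serve to choose them. Of the 150, 138 averaged 5 CPM or more in Niue. Their range (highest minus lowest L of the 3 libraries) had a median of 1.09 (quartiles 0.71 and 1.43), against 0.50 for all 13183 gene models at that level in Niue. A range of at least 2-fold was found for 76 of the 138 (55.1%, against 12% of all). The order of the Niue libraries was uneven: replicate 4 was the lowest for 107 of the 138 (77.5%, against 62.7% of all), and replicate 2 the highest for 110 (79.7%, against 47.5%). Of all 150, 90 had their levels in the order replicate 2, replicate 3, replicate 4 from high to low. This was a larger share than among all ranked gene models, where 4569 of 13712 (33.3%) had that order. At least 2-fold lower than both others in Niue replicate 4 were 16 (11.6%, against 0.584%), and at least 2-fold higher in Niue replicate 2 were 18 (13%, against 2.14%), while no gene model of the set was at least 2-fold lower in Niue replicate 2 (0.759% of all were). Niue replicate 3 was at least 2-fold the lowest for 4 (2.9%, against 2.89%), a share near that of all gene models.

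These Niue counts moved with the scaling. The share of the 5 abundant gene models was 26.3% in Niue replicate 4, 12.5% in replicate 3 and 0.901% in replicate 2, and with those 5 left out of the totals 3 gene models were at least 2-fold lower in Niue replicate 4 (0.114% of all) and 10 at least 2-fold higher in Niue replicate 2 (1.13%). With TMM factors the counts were 4 (0.167%) and 15 (1.62%). The median of Niue replicate 4 minus replicate 2 over the 150 was -0.90 on the log2 scale, against -0.27 over all ranked gene models. With TMM factors it was -0.71, against -0.08, and without the 5 abundant gene models -0.49, against 0.13. A library factor shifts all gene models nearly alike, so it moves both medians together. Niue replicate 4 was below replicate 3 for 115 of the 150 (76.7%, against 73.7% of all), a share near that of all gene models. Against replicate 2 the shares differed more. Replicate 4 was below it for 137 (91.3%, against 75.4%) and replicate 3 for 120 (80%, against 54.6%). The median range in Niue was 0.93 with TMM factors (0.40 for all) and 0.78 without the 5 abundant gene models (0.43). In Sam-07 it was 0.79 (0.61 for all) and 0.85 (0.70) under the same settings. Scaled by library totals, the Niue range was 0.57 without Niue replicate 2 (0.33 for all), 0.95 without replicate 3 (0.34) and 0.55 without replicate 4 (0.26). Each comparison within a cultivar rests on single libraries and has no replicate check.

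With all 3 Sam-07 libraries the 150 varied little more than other gene models, but without replicate 2 their range stood further above. For the 139 that averaged 5 CPM or more there, the median range was 0.88, against 0.74 for all 13408 gene models at that level, and 58 had a range of at least 2-fold (41.7%, against 31.7%). With Sam-07 replicate 1, 2 or 3 left out, the median range was 0.52, 0.56 or 0.59, against 0.54, 0.28 or 0.57 for all, so the set was close to all gene models except when replicate 2 was left out. Sam-07 replicate 2 was at least 2-fold lower than both others for 9 (6.47%, against 4.73%) and at least 2-fold higher for 13 (9.35%, against 8.47%), shares near those of all gene models. In replicate 3 of Sam-07, 9 were at least 2-fold higher (6.47%, against 2.28%) and 3 lower (2.16%, against 0.649%), and in replicate 1, 4 were higher (2.88%, against 1.9%) and 6 lower (4.32%, against 1.36%). With TMM factors 8 were at least 2-fold higher in Sam-07 replicate 2 (5.76%, against 2.75%). The median of Sam-07 replicate 1 minus replicate 2 was -0.38 for the 150, against -0.40 for all ranked gene models.

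**Figure D4:**
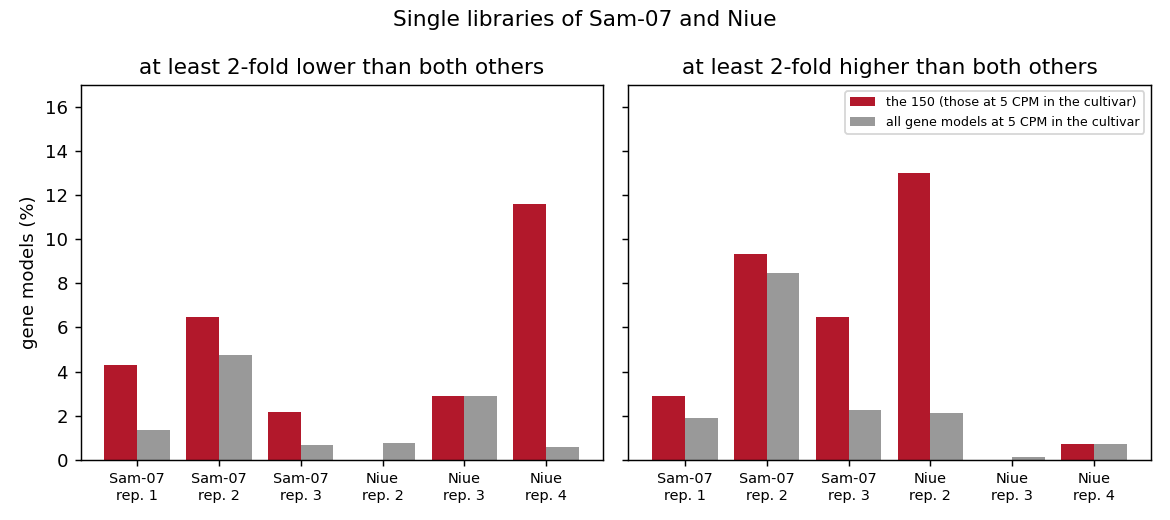
Share of gene models that were at least 2-fold lower (left) or higher (right) in 1 library than in both others of its cultivar, for those of the 150 (red) and for all gene models (grey) that averaged 5 CPM or more in that cultivar. The red bars stand furthest above the grey ones for low levels in Niue replicate 4 (11.6% against 0.584%) and high levels in Niue replicate 2 (13% against 2.14%).

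Among the 132 gene models of the set at 5 CPM or more in both cultivars, 33 had a range of at least 2-fold in both (25%, against 6.68% of all 12628 such gene models), 38 in Niue and not in Sam-07 (28.8%, against 4.24%), 20 in Sam-07 and not in Niue (15.2%, against 23.3%) and 41 in neither (31.1%, against 65.7%). A few of the set were high in Niue replicate 2 and near the floor in another Niue library. Taro_010008 (TARO_scaffold_000357, 220802 to 222924, 2 exons, plus strand) had 559, 0.822 and 4.02 CPM in Niue replicates 2, 3 and 4, the widest range of the 150. It had 29.6 CPM in Palau 10 replicate 3, against 256 and 283 CPM in replicates 1 and 2, and 1.8, 2.26 and 11.4 CPM in Sam-07. Palau 10 replicate 3 was thus above 5 of the 6 other libraries for this gene model.

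Taro_054815 (TARO_scaffold_011570, 9686 to 10018, 1 exon, plus strand) had 470.5, 1.48 and 43 CPM in the same Niue libraries, and 1.42 CPM in Palau 10 replicate 3, against 21.3 and 66 CPM in replicates 1 and 2. In Sam-07 it had 0.901, 12.2 and 12 CPM, so low values came up in all 3 cultivars. Taro_031385 (TARO_scaffold_002222, 163503 to 164285, 1 exon, minus strand) had 63, 2.63 and 4.94 CPM in Niue, 0.631, 7.04 and 2.47 CPM in Sam-07, and 1.14 CPM in Palau 10 replicate 3, against 86.9 and 87.7 CPM in replicates 1 and 2. Taro_027814 (TARO_scaffold_001759, 173203 to 173734, 2 exons, plus strand) had 64.8, 4.11 and 7.68 CPM in Niue, 2.61, 13.8 and 5.87 CPM in Sam-07 and 4.69 CPM in Palau 10 replicate 3, against 86.4 and 59.4 CPM. Taro_010462, at rank 150 (TARO_scaffold_000379, 72181 to 74315, 2 exons, plus strand), had 17.8, 0.493 and 1.46 CPM in Niue, 0.901 to 1.53 CPM in Sam-07 and 0.64 CPM in Palau 10 replicate 3, against 10.3 and 9.83 CPM. For Taro_010008, Taro_031385, Taro_027814 and Taro_010462 the 3 highest libraries were Palau 10 replicates 1 and 2 and Niue replicate 2, a likeness seen only after their values were known.

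In Sam-07 the 3 widest ranges belonged to gene models low in replicate 2. Taro_017246 (TARO_scaffold_000782, 389282 to 390574, 1 exon, minus strand) had 183, 9.96 and 622 CPM in Sam-07 replicates 1, 2 and 3, with 2.35 CPM in Palau 10 replicate 3, against 303 and 84.5 CPM in replicates 1 and 2, and 67.6, 15.6 and 35.7 CPM in Niue. Taro_023076 (TARO_scaffold_001246, 117921 to 119347, 4 exons, minus strand) had 178, 8.69 and 69.3 CPM in Sam-07, and Taro_002875 (TARO_scaffold_000071, 982798 to 984807, 1 exon, minus strand) had 47.7, 2.15 and 22.8 CPM. In Palau 10 replicate 3 these 2 had 3.48 and 0.782 CPM, against 68.3 and 33.8 CPM and 30.6 and 10.8 CPM in replicates 1 and 2. For all 3, Sam-07 replicate 2 was the second lowest of the 9 libraries and Palau 10 replicate 3 the lowest. Taro_049363 (TARO_scaffold_006987, 44794 to 46110, 2 exons, plus strand) had the opposite order, with 29, 174 and 10.5 CPM in Sam-07 and 0.355 CPM in Palau 10 replicate 3, against 30.3 and 30.2 CPM in replicates 1 and 2. It had 23.3, 18.7 and 4.39 CPM in Niue. It was thus at least 2-fold higher in Sam-07 replicate 2, and at least 2-fold lower in Niue replicate 4, than in both other libraries of the cultivar.

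Other members were steady within Sam-07 and within Niue. Taro_017198 (TARO_scaffold_000779, 350471 to 352247, 3 exons, minus strand) had 91.8 CPM in Palau 10 replicate 3, against 2614 and 2406 CPM in replicates 1 and 2. It had 1461, 2043 and 1981 CPM in Sam-07 and 1887, 1516 and 1325 CPM in Niue, a range of 0.48 and 0.51 on the log2 scale. Palau 10 replicate 3 was thus 27.4-fold below its cultivar mates for a gene model that differed by under 2-fold within each other cultivar. Taro_023303 (TARO_scaffold_001266, 256326 to 258811, 3 exons, minus strand) had 61.1 CPM in Palau 10 replicate 3, against 557 and 415 CPM in replicates 1 and 2, with 291, 298 and 302 CPM in Sam-07 and 315, 334 and 233 CPM in Niue. Taro_040584 (TARO_scaffold_003942, 113719 to 119355, 5 exons, minus strand) had 42.6 CPM in Palau 10 replicate 3, against 348 and 342 CPM in replicates 1 and 2, with 172, 175 and 231 CPM in Sam-07 and 185, 149 and 135 CPM in Niue. Taro_037318 (TARO_scaffold_003233, 112960 to 122213, 5 exons, minus strand) had 2.13 CPM, against 20.7 and 23.2 CPM, with 4.33, 6.6 and 5.29 CPM in Sam-07 and 7.15, 7.89 and 9.14 CPM in Niue. Each of these 4 was higher in Palau 10 replicates 1 and 2 than in all 6 libraries of the other cultivars.

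Over all ranked gene models, the size of the fall in Palau 10 replicate 3 ran along with the difference between Niue replicates 4 and 2. The median of Niue replicate 4 minus replicate 2 was -0.90 for the 150, -0.75 for the 196 other gene models at least 4-fold lower in Palau 10 replicate 3, -0.57 for the 1126 that were 2-fold to 4-fold lower, -0.37 for the 4679 lower by less, and -0.14 for the 7561 not below both mates. In the same order of classes the median of Niue replicate 4 minus replicate 3 was -0.39, -0.43, -0.35, -0.31 and -0.14, so the 150 were not the lowest. Sam-07 replicate 2 minus the mean of replicates 1 and 3 had medians of 0.30, 0.47, 0.41, 0.43 and 0.28, which do not follow the order of the fall. Across the 13712 gene models, the level in Palau 10 replicate 3 minus the smaller of replicates 1 and 2 had a Pearson r of 0.44 and a Spearman rho of 0.42 with Niue replicate 4 minus replicate 2. The axes share no library, and all points of an axis share the same few libraries and their composition. Within the 150 the same correlation was 0.05 (rho 0.09). The ranking keeps only the largest falls there, which narrows that axis, so this value cannot be weighed against the one over all. With Niue replicate 4 minus replicate 3 the Pearson r was 0.49 and the rho 0.37 over all ranked gene models, and -0.06 (rho -0.04) within the 150. For Sam-07 replicate 1 minus replicate 2 these were 0.35 and 0.20 over all, and -0.06 (rho -0.05) within the 150. For Sam-07 replicate 3 minus replicate 2 they were 0.38 and 0.19, and -0.04 (rho -0.05). Gene models are not independent replicates, and these values are descriptions.

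Sam-07 and Niue were then compared by a fit over the 6 libraries of these cultivars, which leaves out the libraries that chose the members. All of the 150 but Taro_004034 passed the filter on low counts, and 9 were called at an adjusted p under 0.05 in edgeR's quasi-likelihood test (6.04%, against 1.64% of all 17409 gene models tested). Of these, 3 were higher in Sam-07 (2.01%, against 0.54%) and 6 lower (4.03%, against 1.1%). The median log2 fold change of Sam-07 over Niue was -0.09 for the members tested, against 0.02 for all tested. With all 9 libraries in the edgeR fit 0 of the 150 were called, while 230 of all 18865 gene models tested were (1.22%). At an unadjusted p under 0.05, 2 of the 150 were higher and 7 lower in that fit, against 958 and 876 of the 18865. DESeq2, run on the 6 libraries, called 18 (12.1%, against 3.88% of all). The fit of 9 libraries takes in the Palau 10 spread for which the members were chosen. Leaving out Niue replicate 2, 3 or 4 gave counts of 2, 1 and 0 (1.34%, 0.671% and 0%, against 0.496%, 0.656% and 0.149% of all). Leaving out Sam-07 replicate 1, 2 or 3 gave 2, 13 and 2 (1.34%, 8.72% and 1.34%, against 0.715%, 5% and 0.671% of all).

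Higher in Sam-07 were Taro_047490, Taro_019176 and Taro_035680. Taro_047490 (TARO_scaffold_006140, 5713 to 6720, 3 exons, plus strand) had 51.2, 43.9 and 97.5 CPM in Sam-07, against 0.328, 0 and 0.366 CPM in Niue, a log2 fold change of 7.94 (SE 0.70, edgeR adjusted p = 0.0057, n = 3 each). Pooled over libraries, Sam-07 had 222 times the fragments per total of Niue (95% counting interval 108 to 554), and in Palau 10 it had 0 CPM in replicate 3, against 14.7 and 12.2 CPM in replicates 1 and 2. Its level in Palau 10 replicate 3 lay with those of Niue and apart from its cultivar mates. It was called in 11 of 14 alternatives, and each of the other called gene models in 5 to 8. Taro_019176 (TARO_scaffold_000916, 159292 to 161462, 3 exons, minus strand) had 1.71, 3.91 and 2.35 CPM in Sam-07, whereas Niue had none; set against 3 fragments over the Niue libraries, Sam-07 was at least 23.7-fold higher (edgeR adjusted p = 0.025). In Palau 10 it had 0.284 CPM in replicate 3, against 12.5 and 9.35 CPM in replicates 1 and 2. Taro_035680 (TARO_scaffold_002940, 145470 to 147433, 3 exons, plus strand) had 30.3, 37 and 21.1 CPM in Sam-07, against 12.8, 9.86 and 6.4 CPM in Niue, with a log2 fold change of 1.55 (SE 0.26, edgeR adjusted p = 0.041). In Palau 10 it had 1.14 CPM in replicate 3, against 35.1 and 34.2 CPM in replicates 1 and 2.

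Lower in Sam-07 were Taro_008198, Taro_041936, Taro_037390, Taro_024902, Taro_037393 and Taro_056934. Taro_008198 (TARO_scaffold_000267, 166691 to 168157, 1 exon, plus strand) had 0.991, 2.86 and 0.47 CPM in Sam-07, against 37.8, 17.1 and 13.3 CPM in Niue, with a log2 fold change of -4.02 (SE 0.60, edgeR adjusted p = 0.025). In Palau 10 it had 1.21 CPM in replicate 3, within the range of Sam-07, against 14.5 and 21.9 CPM in replicates 1 and 2, within the range of Niue. Taro_041936 (TARO_scaffold_004283, 57166 to 58799, 2 exons, plus strand) had 20.2, 59.9 and 23.8 CPM in Sam-07, against 417, 262 and 179 CPM in Niue, with a log2 fold change of -3.15 (SE 0.41, edgeR adjusted p = 0.015). It had 2 fragments in Palau 10 replicate 3, against 15.5 and 31.1 CPM in replicates 1 and 2, a 163-fold difference in pooled CPM (95% counting interval 45.1 to 1352). With that count set at the floor of 3 fragments, the mean of replicates 1 and 2 was 109-fold the level in replicate 3. The other 4 had log2 fold changes from -2.44 for Taro_037390 to -1.92 for Taro_056934, with edgeR adjusted p from 0.014 to 0.034. In all 6 of these gene models every Sam-07 library was below every Niue library. Taro_056934 (TARO_scaffold_018332, 2002 to 4792, 4 exons, minus strand) had 33, 60.4 and 26.2 CPM in Sam-07, against 154, 157 and 112 CPM in Niue, and 6.4 CPM in Palau 10 replicate 3, against 54.9 and 58.2 CPM in replicates 1 and 2.

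The 150 had fewer exons and shorter spans than the ranked gene models as a whole, measures that the ranking did not use. Their median was 3 exons, against 5 for all 13712 ranked gene models, and the median span from first to last exon was 2131 bp, against 5277.5 bp. The summed exon length differed less, at a median of 1395.5 bp, against 1657 bp, and the introns together had a median of 523 bp, against 3430 bp. Of the 150, 26 had 1 exon (17.3%, against 8.86%), 45 had 2 (30%, against 11.8%), 58 had 3 to 5 (38.7%, against 33.3%) and 21 had 6 or more (14%, against 46.1%). Seen from the exon classes, 2.14% of ranked gene models with 1 exon, 2.79% with 2, 1.27% with 3 to 5 and 0.333% with 6 or more were among the 150. The median span ran with the size of the fall, at 2131 bp for the 150, 2676.5 bp for the 196 other gene models at least 4-fold lower, 3946.5 bp and 5240 bp in the classes of smaller falls, and 5729 bp for those not below both mates. The smaller L of replicates 1 and 2 minus L in replicate 3, over all ranked gene models, did not run evenly with the exon number, with medians of -0.09, -0.02, 0.02 and -0.22 on the log2 scale for 1, 2, 3 to 5, and 6 or more exons. The share with 1 or 2 exons was 47.3% in the 150, 41.3% in the 196 others at least 4-fold lower, 32.1% in the 1126 that were 2-fold to 4-fold lower, and 18.3% and 19.3% in the remaining classes. The 196 others had a median of 3 exons and 1408 bp of exon, close to the 150, so the trait was graded with the fall and not particular to the set. From the 150 to those not below both mates, the median level in Palau 10 replicates 1 and 2 also fell. It was 69.9, 55, 43.6, 28.7 and 20.2 CPM. Structure and level thus changed together over these classes, and the part of level was not tested. Set beside all 57034 gene models of the files, whose median is 3 exons and 2970 bp, the 150 had the same median exon number, but 17.3% of them had 1 exon, against 6.77%, and 14% had 6 or more, against 25.6%. Values of RNA integrity are not among the sources used here, and its part in these numbers was not tested.

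**Figure D5:**
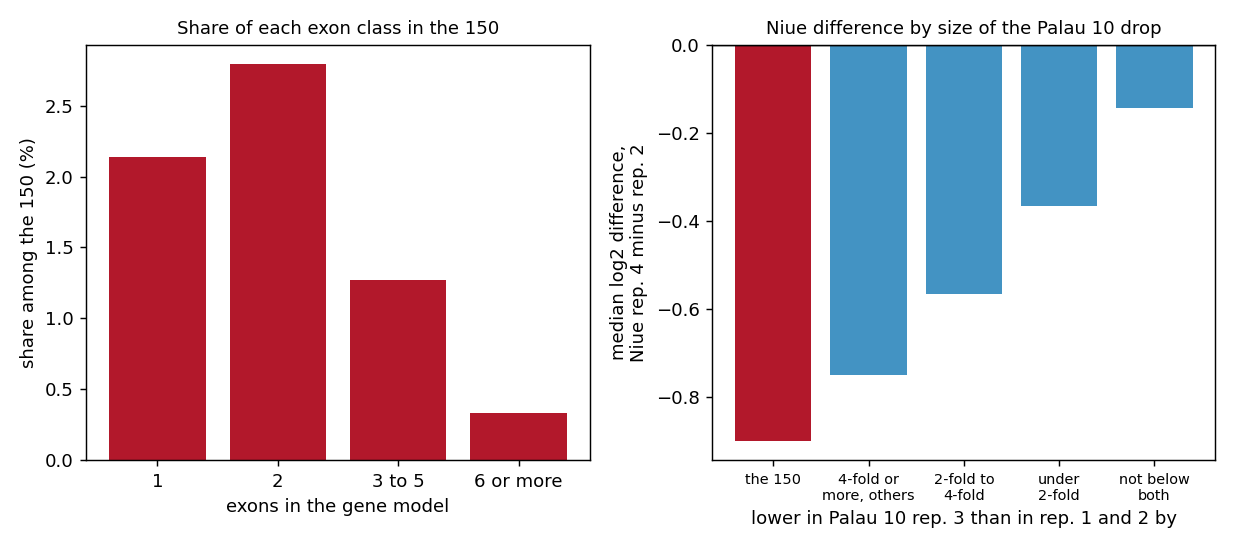
Left, the share of ranked gene models of each exon number that belonged to the 150, from 0.333% to 2.79%. Right, the median log2 difference of Niue replicate 4 minus Niue replicate 2 for the 150 (red) and for the other ranked gene models by the size of their fall in Palau 10 replicate 3 (blue), from -0.90 to -0.14.

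The 150 were spread over the assembly. They lay on 144 scaffolds, 80 on the plus strand (53.3%, against 50.1%), and 6 scaffolds held 2 each. Only 3 pairs were next neighbours. Taro_041935 and Taro_041936 lie 1223 bp apart on the plus strand of TARO_scaffold_004283 (54119 to 55942 and 57166 to 58799), each with 2 exons. Taro_041935 had 64.4 CPM in Palau 10 replicate 3, against 702 and 873 CPM in replicates 1 and 2, with 359, 407 and 360.4 CPM in Sam-07 and 718, 557 and 273 CPM in Niue, and it was not called between Sam-07 and Niue (edgeR adjusted p = 0.61), unlike its neighbour. The difference between the neighbours was not tested. Taro_026267 and Taro_026268 lie 711 bp apart on the minus strand of TARO_scaffold_001582 (76651 to 80120 and 80832 to 86014). Taro_026267 had 20.8 CPM in Palau 10 replicate 3, against 169.6 and 197 CPM in replicates 1 and 2, and Taro_026268 had 37 CPM, against 389.6 and 419 CPM, so both fell by a like factor, 8.84-fold and 10.9-fold. Taro_019671 and Taro_019672 are 12437 bp apart on the minus strand of TARO_scaffold_000955 (152426 to 154882 and 167320 to 172343), with 3.98 and 0.355 CPM in Palau 10 replicate 3.

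Beyond these pairs a fall of at least 2-fold was about as common among neighbours as elsewhere, though their median difference was higher. Of 89 neighbouring gene models at 5 CPM or more in Palau 10 that were not in the set, 12 were at least 2-fold lower in Palau 10 replicate 3 (13.5%, against 10.7% of all ranked gene models). Their median difference, counted as in the ranking, was 0.27, against -0.11 for all. On counting, 4 of the 150 share exon bases with a gene model on the opposite strand, 220 bases for Taro_046868, 172 for Taro_048172, 53 for Taro_032123 and 3 for Taro_024454. Fragments on those bases were not counted, and since strand was not used, RNA of the opposite strand on their other exon bases would be counted for them. Near-identical copies of a gene lose fragments in such counts, and which of the 150 have copies was not analysed here.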

How the data were processed

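Leaf RNA of 9 libraries (3 per cultivar) was analysed from deposited counts of fragments per gene model. The labels' protocols name CTAB extraction (4 g of leaf), drying of the RNA for 40 h and stranded TruSeq libraries. The tools, per the submitters' processing notes, were Subread 1.4.6, STAR (as 3.5.0a), Trimmomatic 0.33 and bcl2fastq 1.8.4. As the authors deposited them and per the file headers, counts come from featureCounts 1.4.6-p4, which counted read pairs over exons, summed by gene, with no option for strand, multiple mapping or overlap. FPKM was computed here with the summed exon length in the same deposited files.

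CPM uses each library's total (5468567 to 18175384 fragments) without further factors. Members and lists were chosen with earlier results of these data known. The test of Sam-07 against Niue used edgeR 4.0.16 in R 4.3.3 (glmQLFit and glmQLFTest, two-sided, TMM factors, filterByExpr with a minimum count of 10 and total of 15, cultivar as the only term) over all 17409 gene models kept, with Benjamini-Hochberg adjustment. SE is the log2 fold change over the root of F. The fit was tested on simulated data. Named gene models are the first 10 by rank, those at the limit, all called, the 4 most abundant, the 4 widest in Sam-07 and in Niue, the 4 steadiest, those without a fragment in Palau 10 replicate 3 or in a cultivar, and neighbouring pairs. Gene models that stood outside the common position, and others named for a count of 5 or fewer, were chosen after their values were seen. Lists by function were not used, since gene models have no names. The replicate numbers of Sam-07 and Niue share 2 and 3 only. The bins by size of the fall and the correlations were added after seeing the data. Alternatives were other factors, filters and pseudocounts, DESeq2 1.42.0, a replicate block, leaving out each library, thinning and removing 5 abundant gene models. Labels give no batch or date.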

Additional observations from a re-analysis of the deposited data

How the results depend on the processing

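The 139 gene models with Palau 10 replicate 3 below all 6 Sam-07 and Niue libraries were 138 to 141 under TMM factors, removal of the 5 abundant gene models, thinning to 5468567 fragments (chosen after seeing the data) and leaving out each of the 6 libraries. Of the 150, 146 were shared with a ranking by TMM-scaled CPM, 139 with log2(CPM + 0.5), 104 with log2(CPM + 5), 149 at a minimum of 1 CPM and 128 at 10 CPM.

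The 9 calls between Sam-07 and Niue were 0 with all 9 libraries, 18 with DESeq2, and 0 to 13 in leave-one-out. With the replicate number as a block they were 0, as were the calls among all 17409 gene models tested. Few libraries are left to measure spread once the block is fitted, so this 0 cannot decide whether the 9 calls hold. Leaving out a library also weakens the test. At an unadjusted p under 0.05, 3 of the 149 members tested were higher and 18 lower in that fit, against 235 and 459 of all 17409. Only replicates 2 and 3 have a partner, and their deviations from the cultivar means correlated at 0.01 and -0.48. Same-number pairs that include a Palau 10 library ran from -0.19 to 0.43. Deviations within a cultivar of 3 libraries are tied to each other, so these values cannot decide whether the numbers pair the libraries. All gene models called, 286, were 230 with all 9 libraries, 89 under the filter of 10 CPM, 0 with the block, 675 with DESeq2 and 27 to 885 in leave-one-out, where 885 is without Sam-07 replicate 2 and 27 without Niue replicate 4. None of the 9 called members changed sign, and the cause of the lost calls was not tested.

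In 2-fold counts, removal of the 5 abundant gene models gave 10 higher in Niue replicate 2 (7.25%, against 1.13% of all gene models). It gave 3 lower in Niue replicate 4 (2.17%, against 0.114%). TMM factors gave 4 lower in Niue replicate 4 (2.9%, against 0.167%) and 8 higher in Sam-07 replicate 2 (5.76%, against 2.75%). With log2(CPM + 5), 2 were lower in Niue replicate 3 (1.45%, against 1.68%) and 1 lower in Sam-07 replicate 3 (0.719%, against 0.172%). In Niue replicate 4, 10 were lower (7.25%, against 0.212%) and 0 higher (against 0.501%). At 4-fold, 6 were higher in Niue replicate 2 (4.35%, against 0.516%) and 1 lower in Niue replicate 3 (0.725%, against 0.599%). In Niue replicate 4, 0 were lower, as among all gene models (0%), and 0 higher (against 0.167%). In Sam-07 at 4-fold, 1 was lower (0.719%, against 0.134%) and 0 higher (against 0.365%) in replicate 1. In replicate 2, 5 were lower (3.6%, against 2.27%) and 1 higher (0.719%, against 0.209%). In replicate 3, 0 were lower or higher (against 0.0224% and 0.515%). The median of Niue replicate 4 minus replicate 2 was -0.49 without the 5 abundant gene models. Leave-one-out, chosen here after seeing the data, gave median ranges of 0.52 to 0.59 in Sam-07 and 0.55 to 0.95 in Niue. All gene models of the files had a median of 3 exons, 865 bp of exon and a span of 2970 bp. Depth limits levels under about 0.5 CPM in the shallow Niue libraries.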
